A study of Mus musculus with 8 samples.

Results

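Mouse embryonic fibroblasts that had been transfected with *Ncor1* siRNA (*siNcor1*) were compared between day 6 and day 3 of reprogramming, to describe which genes and pathways were gained and lost over this interval. The comparison used 4 of the 8 RNA-seq libraries of the series, 2 per day, assigned by their labels, and the other 4 libraries (labelled *siOct4*, 2 per day) served to ask where the change differed between knockdowns. All groups were primary fibroblasts that the labels give as wild-type, of strain BL6 and reprogrammed at passage 2, and were cultured in the same way. They were transduced with 2 lentiviruses, a doxycycline-inducible tet-STEMCCA cassette carrying Oct4, Sox2, Klf4 and c-Myc (OSKM) and the rtTA transactivator, at an MOI of 1. The groups differed in the siRNA pool, given once at 40 nM before induction, and in the day of RNA collection. The medium held doxycycline, LIF, ascorbic acid, the GSK3 inhibitor chiron and the TGF-β receptor inhibitor Alk5i from induction on, so both days and both knockdowns shared these agents. A non-targeting siRNA was not analysed here, so the change from day 3 to day 6 is that of reprogramming under *Ncor1* siRNA and cannot be assigned to the siRNA. The 2 libraries of a group are described as biological replicates, and no label says whether they came from separate cultures, so p-values measure the spread between these libraries.

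NCOR1 is a corepressor without DNA-binding activity of its own that brings the histone deacetylase HDAC3 to nuclear receptors and other transcription factors. In OSKM reprogramming of fibroblasts, an early mesenchymal-to-epithelial transition is known to precede the activation of the endogenous pluripotency network. Contractile and matrix genes are shut down, E-cadherin, keratins and tight junction genes are switched on, and *Nanog*, *Esrrb* and their partners follow in a small fraction of the cells. The bulk libraries average over all cells in the well, so fewer cells of a type and less RNA per cell cannot be told apart.

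*Ncor1* itself (ENSMUSG00000018501, chr11:62316426-62458541, - strand, GRCm38) was measured first. It stood at 135 and 146 CPM at day 3 and 153 and 156 CPM at day 6 in *siNcor1*, and at 226 and 245 CPM at day 3 and 160.4 and 140.3 CPM at day 6 in the libraries labelled *siOct4*. At day 3 both *siNcor1* libraries lay below both *siOct4* libraries, and at day 6 the groups overlapped. Within *siNcor1* the level did not change past the threshold (log2 fold change 0.14 ± 0.12, adjusted p = 0.399), and the day 6 against day 3 difference was higher than in *siOct4* (difference 0.79 ± 0.17, adjusted p = 0.00824). *Ncor1* overlaps *Pigl*, *Ttc19* and *Gm12276* in the annotation. Of 6 listed subunits and partners of the NCoR/HDAC3 complex, *Tbl1x* (log2 fold change -0.55) and *Tbl1xr1* (log2 fold change -0.60), the exchange factors of the complex, fell, and the others were not called. Both of these calls were lost without day 3 replicate 1 and without day 6 replicate 1.

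The deposited values were log2 CPM for 18990 genes (CPM, a gene's reads scaled to a common library size), from 15961703 and 16445192 reads on genes at day 3 and from 12072599 and 11320066 at day 6 in *siNcor1*, against 7735742 to 14861698 in *siOct4*. In *siNcor1*, 3 reads corresponded to 0.174 to 0.252 CPM per library. One RNA, *Gm26917*, took 16.6 and 16.2% of the reads at day 3 and 21.7 and 20.3% at day 6 in *siNcor1*. In *siOct4* it took 16.2 and 15.5% at day 3 and 29.1 and 23.9% at day 6. A larger share of this RNA lowers the CPM of all other genes in a library. CPM is not corrected for gene length, so CPM values compare libraries for one gene, not genes with each other. The deposited log2 values carry an added constant, which understates the fold change of genes near 0 reads.

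A gene was called at an adjusted p under 0.05 (limma, 2 libraries per group) among the 13866 genes whose CPM averaged 1 or more across the series. Log2 fold changes are given ± SE, and differences between knockdowns are differences of the log2 fold changes ± SE. For genes with at most 3 reads in each library of a day, the read ratio is that of summed reads at day 6 and day 3, scaled for depth, with its exact 95% counting interval. This interval covers counting error only, not the spread between replicates. Averaged over genes with enough reads, the variance between *siNcor1* replicates was 10.6 (day 3) and 10.1 (day 6) times that of counting. For genes near 0 reads this excess was not measured. By this rule 4819 genes (34.8%) changed from day 3 to day 6 in *siNcor1*, of which 1917 rose (13.8%) and 2902 fell (20.9%). Fewer genes rose than fell, but among called genes the rises were larger: the median size of the log2 change was 0.93 for genes that rose and 0.64 for genes that fell. Genes that rose had a lower level (median 15.6 CPM, against 51.8 for genes that fell), where larger changes are needed to pass the threshold. These medians are therefore not directly comparable. The surplus of falls depended on scaling: with library totals without *Gm26917*, 2331 genes rose and 2361 fell. A log2 fold change of at least 1 was reached by 867 genes that rose (6.25%) and 424 that fell (3.06%), and one of at least 3 by 96 and 2 genes. The median change of all tested genes was -0.07 on the log2 scale. Both day 6 libraries lay above both day 3 libraries for 31.4% of genes and below them for 41.7%, and against these shares a lack of overlap in a single gene says little. The counts of list members that follow stand against the shares of all genes that rose (13.8%) or fell (20.9%), and a count near them is no result about the list. List members near 0 at day 3 pass the filter through the libraries in which they are high, so where members were left out, counts and medians describe the tested members only. The number of calls dropped when a library was left out, to between 969 and 1399 genes that rose and between 1391 and 1893 that fell. The plot of change against level shows how the genes past the threshold were spread over the range of expression.

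**Figure D1:**
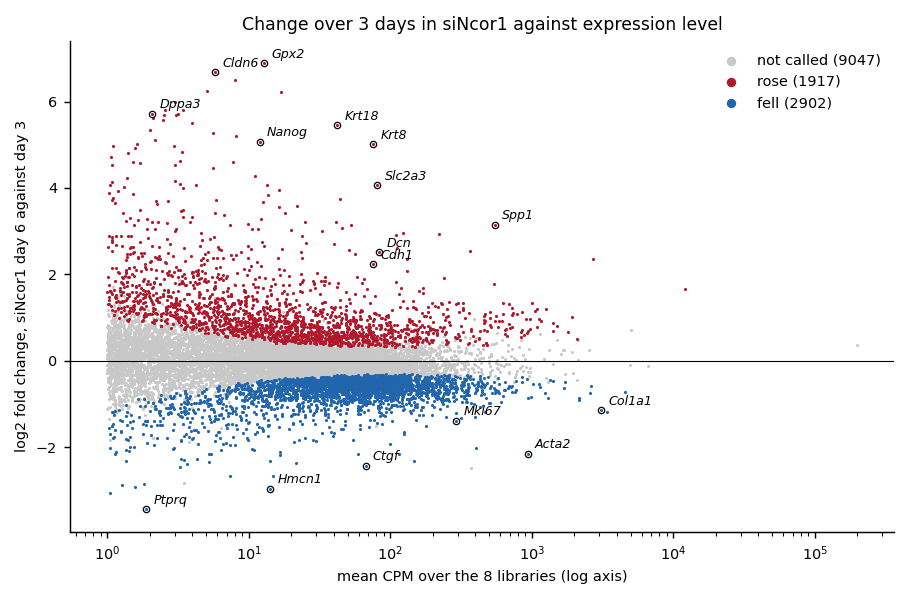
Log2 fold change of day 6 against day 3 in *siNcor1* (vertical axis) against the mean CPM over all 8 libraries (horizontal axis, log scale), one point per tested gene, with 1917 genes that rose in red, 2902 that fell in blue and 9047 not called in grey. The largest rises were genes of low mean level such as *Cldn6* and *Gpx2*, and falls beyond a log2 change of -2 included the abundant contractile gene *Acta2*.

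The 4 cassette factors came first among the checks of the system. *Pou5f1* (Oct4) stood at 197 and 205 CPM at day 3 and 187 and 159.7 CPM at day 6 (log2 fold change -0.22 ± 0.16, adjusted p = 0.306). *Klf4* stood at 601 and 605 CPM at day 3 and 441 and 421 CPM at day 6 (log2 fold change -0.48 ± 0.18, adjusted p = 0.0528). Neither gene passed the threshold. *Sox2* fell from 289 and 287 to 217 and 182 CPM (log2 fold change -0.54 ± 0.19, adjusted p = 0.0429) and *Myc* from 566 and 591 to 369.6 and 351 CPM (log2 fold change -0.68 ± 0.16, adjusted p = 0.00618). The day 6 libraries were the lower ones for all 4 genes. The *Sox2* call was lost in each of the 4 fits that left out one *siNcor1* library, and the *Myc* call in 2 of them (without day 3 replicate 2 and without day 6 replicate 2). Reads from the cassette and from the endogenous genes were not separated in these values. In the libraries labelled *siOct4* the same 4 genes rose (*Pou5f1* from 185 and 197 to 700.1 and 501 CPM), and all 4 differences between the knockdowns were called. At day 3 *Pou5f1* stood at 185 and 197 CPM in *siOct4*, close to *siNcor1*, and at day 6 it was higher there. The siRNA was given once before induction and these reads include the cassette, so the *Pou5f1* level cannot check the labels at these days.

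Epithelial genes were gained. The simple keratins *Krt8* and *Krt18*, which pair into the filaments of single-layered epithelia, were low at day 3 and among the genes with the lowest adjusted p. *Krt8* (ENSMUSG00000049382, chr15:101996698-102004482, - strand) went from 5.32 and 6.50 CPM at day 3 to 198 and 190.5 CPM at day 6, a 32.3-fold rise (log2 fold change 5.01 ± 0.16, adjusted p = 1.0e-08). *Krt18* (ENSMUSG00000023043, chr15:102028180-102032027, + strand), its neighbour on chromosome 15, went from 3.40 and 2.96 CPM at day 3 to 149 and 141 CPM at day 6 (43.9-fold; log2 fold change 5.46 ± 0.19, adjusted p = 1.7e-08). *Krt7* rose as well, from 1.61 and 1.62 CPM at day 3 to 17.7 and 19.4 CPM at day 6 (log2 fold change 3.41 ± 0.35, adjusted p = 5.7e-05). *Krt19*, which was not called, stood at 36.1 and 32.4 CPM at day 3 and 32.1 and 36.5 CPM at day 6. In the first 3 genes the days were far apart and the replicates close together, and for *Krt19* they overlapped.

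Of 13 tight junction and polarity genes 11 rose, with a median log2 change of 2.38, and of 11 adherens and epithelial surface genes 10 rose, with a median of 2.58, where 13.8% of all genes rose and the median was -0.07. Most junction genes were of low level: with a mean of at least 10 CPM required, 4 tight junction genes remained, 2 of which rose, with a median of 0.49. E-cadherin (*Cdh1*), the adhesion molecule of epithelial cells, was already present at day 3 and went from 33 and 35.4 CPM at day 3 to 165 and 158 CPM at day 6 (4.71-fold; log2 fold change 2.24 ± 0.13, adjusted p = 1.6e-06). *Epcam*, an epithelial adhesion molecule, rose from 10.7 and 9.69 CPM at day 3 to 99.5 and 91.4 CPM at day 6 (9.25-fold; log2 fold change 3.21 ± 0.26, adjusted p = 1.7e-05). The claudins, which form the strands of tight junctions, started near 0: *Cldn4* was at 0.928 and 0.464 CPM at day 3 and 61 and 57.8 CPM at day 6 (74.5-fold; log2 fold change 6.22 ± 0.30, adjusted p = 3.0e-07). *Cldn6* had 2 reads at day 3 in all and stood at 0.124 and 0 CPM at day 3 and 20.6 and 18 CPM at day 6 (read ratio 322, interval 88.7 to 2668). Further members of both lists that rose were the polarity protein *Crb3* (log2 fold change 5.21), *Cldn7* (4.17), *Cldn3* (2.95), the membrane protease *Prss8* (4.98), the sorting adaptor *Ap1m2* (4.46) and the junction plaque protein *Cgn* (3.47). *Cdh3* (9.40 and 8.0 CPM at day 3 and 8.51 and 7.99 CPM at day 6) and *Patj* were among the members not called. The counts of both lists stayed between 10 and 11 in each fit that left out one *siNcor1* library. *Lad1*, an anchoring filament protein outside the lists, went from 0.124 and 0.116 CPM at day 3 to 24 and 21.9 CPM at day 6 (read ratio 192, interval 74.6 to 707).

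Desmosomal genes were split. Of 9 tested of 11 listed, 6 rose, led by plakophilin 3 (*Pkp3*, 0.433 and 0.348 CPM at day 3 and 6.36 and 6.39 CPM at day 6; log2 fold change 3.63 ± 0.45, adjusted p = 1.7e-04) and desmoglein 2 (*Dsg2*, log2 fold change 2.59). Desmoplakin, the link to keratin filaments, fell (*Dsp*, 238 and 253 CPM at day 3 and 165 and 181 CPM at day 6; log2 fold change -0.50 ± 0.15, adjusted p = 0.0217), as did *Pkp2*. With a mean of at least 10 CPM required, 6 were tested, 3 rose and 2 fell, with a median log2 change of 0.13. The number of rises also depended on single libraries, and with one *siNcor1* library left out the median of the list was 0.64 to 1.20. The 2 falls were less firm: the *Dsp* call was lost in each fit that left out one *siNcor1* library, and *Pkp2* was called in 1 of the 4 fits that left out one *siNcor1* library.

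Of 11 tested epithelial regulators 9 rose. The transcription factor *Grhl2*, a driver of epithelial junction genes, went from 0.247 and 0.232 CPM at day 3 to 9.91 and 8.32 CPM at day 6 (log2 fold change 4.62 ± 0.41, adjusted p = 2.4e-05). The splicing regulator *Esrp1*, which sets epithelial exon choice, went from 2.29 and 2.26 CPM at day 3 to 21.9 and 17.8 CPM at day 6 (log2 fold change 3.04 ± 0.26, adjusted p = 1.9e-05). *Tfap2c* (2.17 and 2.03 CPM at day 3 and 20.1 and 19 CPM at day 6; log2 fold change 3.14) and *Elf3* (log2 fold change 3.33) also rose, and all 4 had day 6 libraries well above day 3. *Ehf* went the other way (6.19 and 5.63 CPM at day 3 and 1.32 and 4.03 CPM at day 6; log2 fold change -1.29 ± 0.40, adjusted p = 0.025) and its replicates at day 6 lay far apart, with the call lost in 3 of the 4 fits that left out one *siNcor1* library. Without day 3 replicate 2 the number that rose was 5, and with each of the other libraries left out it was 6 to 8. *Klf5* was not called.

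The promoters of the junction and keratin genes were read for the E-box CACCTG, the sequence bound by the repressors of the SNAI and ZEB families, since these repressors are known to silence epithelial genes in fibroblasts. RefSeq starts on GRCm38.p6 were used, with the 250 bases before the start, and the motif was sought on both strands. It was present in 3 of 3 promoters of simple keratins (100%; *Krt7*, *Krt8*, *Krt18*), in 12 of 19 promoters from 10 of 12 matched tight junction genes (63.2%) and in 4 of 6 promoters of adherens genes (66.7%; 6 of 11 genes matched), against 17.2% of all 32851 promoters. *Krt19* and *Cdh1* had no entry in the table. Several genes have more than one start. Shown are *Krt8* and *Krt18*, the keratin and junction genes with the lowest adjusted p, and a claudin among the largest rises, with the E-box (or its reverse complement) in capitals. The first base of the match is 111 bases before the start in *Krt8* (chr15:102004343-102004592, - strand), 214 in *Krt18* (chr15:102027966-102028215, + strand) and 14 in *Cldn4* (chr5:134946935-134947184, - strand).
Krt8: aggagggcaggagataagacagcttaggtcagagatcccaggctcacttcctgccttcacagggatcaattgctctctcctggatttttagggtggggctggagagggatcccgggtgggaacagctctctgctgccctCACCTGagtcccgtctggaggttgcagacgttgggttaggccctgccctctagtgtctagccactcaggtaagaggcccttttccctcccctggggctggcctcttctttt
Krt18: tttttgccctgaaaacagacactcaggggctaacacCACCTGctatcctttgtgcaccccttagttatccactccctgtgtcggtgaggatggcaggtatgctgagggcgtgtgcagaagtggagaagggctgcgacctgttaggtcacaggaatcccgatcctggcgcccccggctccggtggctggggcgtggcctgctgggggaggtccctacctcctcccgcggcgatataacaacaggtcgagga
Cldn4: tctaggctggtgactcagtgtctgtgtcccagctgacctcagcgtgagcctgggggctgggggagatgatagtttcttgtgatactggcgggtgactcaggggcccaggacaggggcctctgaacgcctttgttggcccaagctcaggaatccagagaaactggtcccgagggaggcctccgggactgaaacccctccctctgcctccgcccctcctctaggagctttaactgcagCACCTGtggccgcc
A match describes letters in this window and not a bound site. The lists were drawn up from background knowledge of epithelial genes, so these shares describe the lists and are no result about the change between days. Among the genes that encode EMT factors, *Snai1* (49.9 and 37.2 CPM at day 3 and 53.2 and 48.1 CPM at day 6; log2 fold change 0.23 ± 0.17, adjusted p = 0.329) was not called. *Snai2* (18.9 and 17.1 CPM at day 3 and 17.7 and 15.8 CPM at day 6) was not called either, and both genes overlapped between days. *Zeb1* (95 and 83.8 CPM at day 3 and 61.2 and 74.1 CPM at day 6; log2 fold change -0.41 ± 0.14, adjusted p = 0.0463) and the mesenchymal homeobox gene *Prrx1* (log2 fold change -0.41) fell. *Twist2* rose (7.86 and 7.66 CPM at day 3 and 17.7 and 15.4 CPM at day 6; log2 fold change 1.07 ± 0.17, adjusted p = 8.8e-04). The *Zeb1* call was lost in each fit that left out one *siNcor1* library and *Prrx1* was called in 1 of the 4 fits that left out one *siNcor1* library, whereas *Twist2* was called in all 4.

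**Figure D2:**
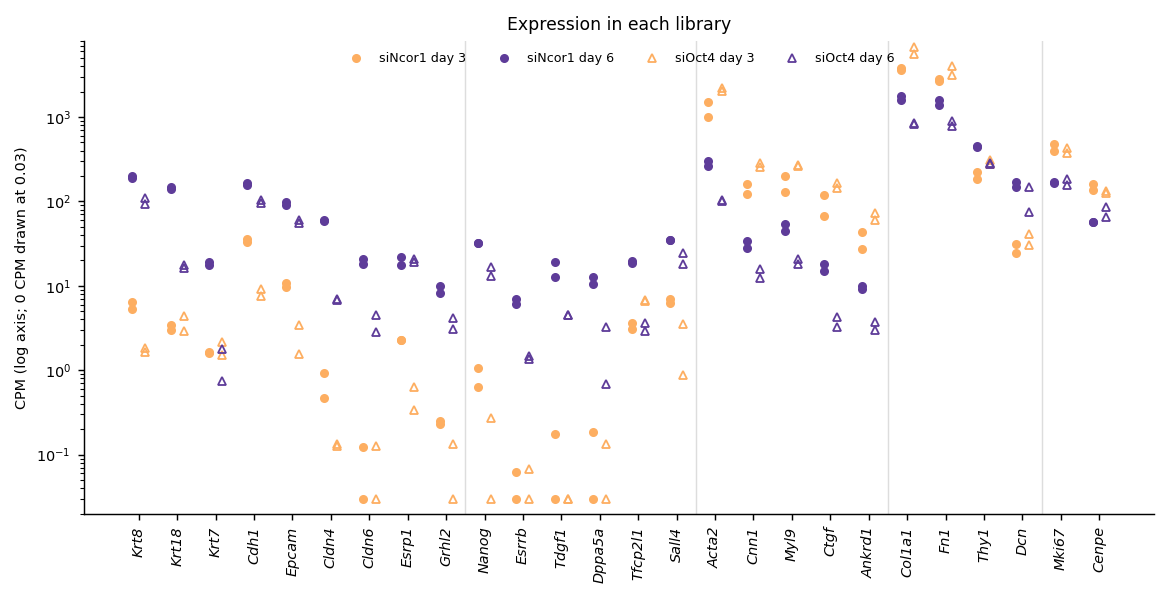
CPM in every library (vertical, log axis) for epithelial, pluripotency, contractile, matrix and proliferation genes, with 0 CPM drawn at 0.03. Filled circles are *siNcor1* and open triangles *siOct4*, orange is day 3 and purple day 6. In *siNcor1* the purple circles lie above the orange circles for *Krt8*, *Cdh1* and *Nanog* and below them for *Acta2*, *Ctgf* and *Mki67*.

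Several genes of stratified epithelia rose too. Of 12 basal and stress keratinocyte genes only 4 passed the filter on low values, and these 4 rose. *Krt16* and *Krt14* were near 0 at day 3 and passed it through the libraries in which they were high, so this number is a description of the tested members. *Krt16* had 0 reads in both day 3 libraries and 4.13 and 4.20 CPM at day 6 (at least 23.2-fold higher, against a floor of 3 reads per library). *Krt14* stood at 0.124 and 0.0580 CPM at day 3 and 2.89 and 3.70 CPM at day 6 (read ratio 36.6, interval 12.1 to 182). *Sfn* (14-3-3σ) rose from 6.50 and 4.76 CPM at day 3 to 51.1 and 41.7 CPM at day 6 (log2 fold change 3.02 ± 0.21, adjusted p = 4.5e-06). The 8 genes below the filter included *Krt5* (0 and 0.0580 CPM at day 3 and 2.07 and 4.03 CPM at day 6), *Krt17* (0 and 0 CPM at day 3 and 1.82 and 1.85 CPM at day 6) and *Krt6a* (0 and 0.290 CPM at day 3 and 1.73 and 3.78 CPM at day 6). *Trp63*, the master regulator of basal keratinocytes, was below the filter at 1.24 and 0.754 CPM at day 3 and 1.24 and 1.18 CPM at day 6. Of 12 tested keratinocyte differentiation genes 7 rose, among them *Gjb2* (connexin 26, 0.619 and 0.116 CPM at day 3 and 11.8 and 12.8 CPM at day 6; log2 fold change 4.83 ± 0.50, adjusted p = 5.9e-05), the skin protease *Asprv1* (log2 fold change 4.58), *Krtdap* (3.68) and *Lgals7* (3.22). *Il1rn* and *Anxa8* fell, and the median log2 change of the 12 was 0.96. With a mean of at least 10 CPM required, 4 were tested, 1 rose and 2 fell, with a median of -0.28.

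Trophoblast genes were low at day 3, with a summed level of 21.6 and 18.2 CPM, against 82.0 and 85.3 CPM at day 6. Of 15 listed, 6 passed the filter and 4 rose, one of them *Krt7*. *Rhox6* was at 0.0619 and 0.0580 CPM at day 3 and 7.85 and 10.8 CPM at day 6 (read ratio 155, interval 42.5 to 1289). The placental hormone gene *Prl2c2* rose from 3.16 and 1.33 CPM at day 3 to 20.6 and 18.5 CPM at day 6 (log2 fold change 3.16 ± 0.44, adjusted p = 3.8e-04), as did *Tfap2a* (log2 fold change 0.93; called in 1 of the 4 fits that left out one *siNcor1* library). *Cdx2* went from 0 and 0 CPM at day 3 to 1.07 and 1.01 CPM at day 6 and *Gcm1* from 0 and 0 CPM at day 3 to 1.24 and 1.18 CPM at day 6, below the filter. *Rhox6* and *Prl2c2* have close copies, between which reads may have been split. *Phlda2*, an imprinted growth regulator of the placenta outside this list, was among the largest rises (0 and 0.0580 CPM at day 3 and 9.83 and 10.6 CPM at day 6; read ratio 341, interval 60.6 to 13522). Of 5 tested endoderm genes *Pdgfra* and *Sox7* rose and *Gata6* fell. *Sox7* was called in 0 of the 4 fits that left out one *siNcor1* library and *Gata6* was called in 1 of the 4 fits that left out one *siNcor1* library, and *Sox17* was at 0 and 0 CPM at day 3 and 0.578 and 0.925 CPM at day 6.

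The pluripotency network was gained as well. Of 17 listed transcription factors 14 were tested, 8 rose and none fell, with a median log2 change of 1.02. With a mean of at least 10 CPM required, 6 were tested and 2 rose, with a median of 0.40. *Nanog*, a core factor of naive pluripotency, went from 1.05 and 0.638 CPM at day 3 to 32.2 and 31.9 CPM at day 6 (33.6-fold; log2 fold change 5.07 ± 0.43, adjusted p = 1.9e-05). *Esrrb* had 1 read at day 3 in all and stood at 0.0619 and 0 CPM at day 3 and 6.03 and 6.98 CPM at day 6 (read ratio 217, interval 38.4 to 8629). *Tfcp2l1* rose from 3.09 and 3.65 CPM at day 3 to 19.7 and 18.4 CPM at day 6 (log2 fold change 2.45 ± 0.21, adjusted p = 1.9e-05). *Sall4* rose from 6.25 and 6.96 CPM at day 3 to 34.9 and 34.5 CPM at day 6 (log2 fold change 2.37 ± 0.43, adjusted p = 0.00162). In each of these genes both day 6 libraries lay far above both day 3 libraries. *Utf1*, a chromatin protein of pluripotent cells, was at 0.0619 and 0 CPM at day 3 and 4.05 and 3.70 CPM at day 6 (read ratio 129, interval 22.7 to 5166). *Mycn*, *Nr5a2* and *Zfp296* rose by log2 changes of 1.28, 1.14 and 0.90. These 3 calls were less firm, each lost in at least 2 of the 4 fits that left out one *siNcor1* library, and without day 6 replicate 1 the list had 5 genes that rose. *Klf2*, *Klf5*, *Tbx3*, *Sall1* and *Nr0b1* were among those not called.

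Of the late markers of pluripotency, several were at or near 0 at day 6. *Zfp42* (Rex1) was at 0 and 0 CPM at day 3 and 0.165 and 0.252 CPM at day 6. *Prdm14* was at 0 and 0 CPM at day 3 and 0.248 and 0.168 CPM at day 6 and *Dppa4* at 0 and 0 CPM at day 3 and 0.330 and 0.168 CPM at day 6, and these genes were below the filter. *Dppa3*, a maternal factor known to protect DNA methylation in the zygote, had 0 reads at day 3 and 6.44 and 7.65 CPM at day 6 (at least 39.2-fold higher). *Dppa5a*, an RNA-binding protein of pluripotent cells, was at 0.186 and 0 CPM at day 3 and 10.4 and 12.9 CPM at day 6 (read ratio 129, interval 43.8 to 631). *Lin28a*, the repressor of let-7 miRNAs, was at 0 and 0.174 CPM at day 3 and 7.43 and 6.56 CPM at day 6 (read ratio 77.9, interval 26.2 to 382). *L1td1* was expressed at both days (60.9 and 76.5 CPM at day 3 and 66 and 66.2 CPM at day 6) and overlapped. Of 6 tested genes for RNA binding and germline chromatin, 5 rose. These genes were near 0 at day 3 and passed the filter through the libraries in which they were high, so that their number is a description and not a measure of how many such genes rose.

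Secreted proteins, enzymes and surface markers of pluripotent cells followed, with 7 of 10 tested genes that rose. *Tdgf1* (Cripto), the coreceptor of Nodal, went from 0 and 0.174 CPM at day 3 to 12.6 and 19 CPM at day 6 (read ratio 176, interval 59.7 to 856). *Nodal* itself rose from 1.30 and 1.28 CPM at day 3 to 6.94 and 4.96 CPM at day 6 (log2 fold change 2.08 ± 0.35, adjusted p = 0.00121). *Tdh*, the threonine dehydrogenase on which mouse pluripotent cells rely, rose from 5.51 and 6.32 CPM at day 3 to 36.3 and 36.1 CPM at day 6 (log2 fold change 2.59 ± 0.36, adjusted p = 3.6e-04). *Icam1* rose from 20.6 and 21.2 CPM at day 3 to 47.7 and 49.4 CPM at day 6 (log2 fold change 1.21 ± 0.13, adjusted p = 6.2e-05). *Cd9* and *Lefty1* rose by log2 changes of 0.83 and 1.38 (*Lefty1* was called in 2 of the 4 fits that left out one *siNcor1* library). *Fgf4*, *Alpl* and *Fut9* were not called. *Fbxo15* rose (1.05 and 1.04 CPM at day 3 and 2.56 and 4.54 CPM at day 6; log2 fold change 1.58 ± 0.48, adjusted p = 0.0245), called in 1 of the 4 fits that left out one *siNcor1* library.

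Among all genes, those with the largest and the most precise rises lay partly outside these groups. *Gpx2*, an epithelial glutathione peroxidase, went from 0.247 and 0.174 CPM at day 3 to 41.1 and 40.6 CPM at day 6 (119-fold; log2 fold change 6.89 ± 0.29, adjusted p = 7.2e-08). It overlaps *Fntb*, which was not separated here. The glucose transporter *Slc2a3*, which is high in pluripotent cells, went from 16.3 and 13.6 CPM at day 3 to 253 and 247 CPM at day 6 (16.7-fold; log2 fold change 4.06 ± 0.14, adjusted p = 1.4e-08), with replicates close to each other at both days. *Spp1* (osteopontin) gave the largest rise among named genes averaging at least 100 CPM over all 8 libraries, at 150.5 and 122 CPM at day 3 and 1203 and 1204 CPM at day 6 (8.88-fold; log2 fold change 3.15 ± 0.21, adjusted p = 3.7e-06). It was followed by the metallothionein *Mt1* (46 and 23.7 CPM at day 3 and 322 and 204 CPM at day 6; log2 fold change 2.95 ± 0.37, adjusted p = 1.7e-04) and the prostaglandin reductase *Ptgr1* (77.3 and 47.4 CPM at day 3 and 444 and 479.9 CPM at day 6; log2 fold change 2.93 ± 0.25, adjusted p = 1.9e-05). The retinoic acid binding protein *Crabp1* rose from 29.7 and 31.1 CPM at day 3 to 253 and 207 CPM at day 6 (log2 fold change 2.90 ± 0.15, adjusted p = 3.6e-07). The telomerase RNA *Terc* rose from 28.1 and 12.8 CPM at day 3 to 160.3 and 86.1 CPM at day 6 (log2 fold change 2.62 ± 0.45, adjusted p = 0.00131). Small RNAs as a class rose in 46 of 95 cases (48.4%), and whether the rise of this noncoding RNA is separate from that shift was not tested. For *Mt1* and *Terc* the replicates lay apart at both days and for *Ptgr1* at day 3, yet both day 6 libraries lay above both day 3 libraries. *AU015836*, a gene of unclear role, completed the rises of largest size (0 and 0.232 CPM at day 3 and 11.2 and 11.9 CPM at day 6; log2 fold change 5.70 ± 0.50, adjusted p = 2.2e-05).

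Wnt response genes rose more often than they fell, in a medium that held a GSK3 inhibitor at both days: of 20 tested of 22 listed, 11 rose and 2 fell, with a median log2 change of 0.94, where 13.8% of all genes rose. With a mean of at least 10 CPM required, 5 of 12 rose and 2 fell, with a median of 0.19, and without day 6 replicate 1 no fall was called. The feedback inhibitor *Notum* rose from 14.2 and 10.2 CPM at day 3 to 49.3 and 48.9 CPM at day 6 (log2 fold change 2.02 ± 0.18, adjusted p = 2.2e-05). *Axin2*, the common readout of the pathway, rose from 27.1 and 25.6 CPM at day 3 to 41.6 and 49.9 CPM at day 6 (log2 fold change 0.79 ± 0.16, adjusted p = 0.00272). The target *Sp5* (log2 fold change 1.99) and the ligands *Wnt6* (0.124 and 0.232 CPM at day 3 and 4.05 and 3.45 CPM at day 6; log2 fold change 3.64) and *Wnt7b* (3.23) rose too. *Cdx1* was at 0 in both day 3 libraries and at 3.06 and 3.87 CPM at day 6 (at least 19.3-fold higher). The Wnt inhibitor *Dkk4*, not on the list, went from 0 and 0.0580 CPM at day 3 to 8.01 and 10.2 CPM at day 6 (read ratio 303, interval 53.9 to 12038). The secreted antagonists *Sfrp1* (391 and 327 CPM at day 3 and 215 and 241 CPM at day 6; log2 fold change -0.65 ± 0.14, adjusted p = 0.00395) and *Sfrp2* fell. *Lef1*, *Lgr5* and *Wnt5a* were not called. Of BMP genes, *Bmp7* went from 0.0619 and 0 CPM at day 3 to 5.45 and 4.88 CPM at day 6 (read ratio 173, interval 30.4 to 6870.4) and *Bmp2* rose (log2 fold change 1.34). The antagonist *Nog* (6.37 and 4.58 CPM at day 3 and 1.65 and 1.93 CPM at day 6; log2 fold change -1.53 ± 0.26, adjusted p = 0.00125) and the target *Id4* (log2 fold change -1.32) fell. *Id1*, *Id2* and *Id3*, the immediate targets of BMP, were not called.

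Contractile genes were lost. Of 19 genes of smooth muscle and stress fibres 17 fell and *Csrp2* rose, with a median log2 change of -1.08, where 20.9% of all genes fell. Their summed level went from 8761 and 6967 CPM at day 3 to 3638 and 3631 CPM at day 6. Smooth muscle actin (*Acta2*, ENSMUSG00000035783), the marker of activated fibroblasts, fell from 1507 and 1007 CPM at day 3 to 298 and 259 CPM at day 6 (4.43-fold lower; log2 fold change -2.15 ± 0.18, adjusted p = 1.7e-05). Its paralog *Actg2* fell from 261 and 150.1 CPM at day 3 to 41.9 and 37.2 CPM at day 6 (5.0-fold lower; log2 fold change -2.32 ± 0.20, adjusted p = 2.0e-05). The actin-binding calponin *Cnn1* fell from 161 and 121 CPM at day 3 to 33.8 and 28.3 CPM at day 6 (4.49-fold lower; log2 fold change -2.17 ± 0.17, adjusted p = 1.3e-05). The myosin light chain *Myl9* fell from 199.6 and 128 CPM at day 3 to 53.4 and 45.2 CPM at day 6 (3.25-fold lower; log2 fold change -1.70 ± 0.18, adjusted p = 7.0e-05). For each of these genes day 3 replicate 1 was the highest *siNcor1* library, and the day 6 libraries were close to each other and below both. *Myh11*, *Lmod1* and *Tagln* fell by log2 changes of -1.66, -1.74 and -1.76, and *Vcl*, *Tpm2*, *Csrp1* and *Flna* by -1.22, -1.25, -1.08 and -0.87. *Smtn* was not called. With one *siNcor1* library left out the number that fell was 14 to 17, and *Csrp2* was then not called in any fit. The actin genes share long stretches of sequence, so reads may have been split among *Acta2*, *Actg2* and *Acta1*.

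Targets of YAP and TEAD, the transcriptional arm of the Hippo pathway that responds to tension and spreading, fell in 7 of 8 cases, with a median log2 change of -1.0. *Ctgf* fell from 119 and 68 CPM at day 3 to 18.3 and 15 CPM at day 6 (5.39-fold lower; log2 fold change -2.43 ± 0.23, adjusted p = 3.3e-05). *Cyr61* fell from 263 and 219 CPM at day 3 to 98.2 and 104 CPM at day 6 (2.37-fold lower; log2 fold change -1.25 ± 0.12, adjusted p = 4.2e-05). *Ankrd1* fell from 43.4 and 27.3 CPM at day 3 to 10.1 and 9.08 CPM at day 6 (3.56-fold lower; log2 fold change -1.83 ± 0.22, adjusted p = 1.3e-04). The days did not overlap in any of the 3. *Crim1*, *Amotl2*, *Ajuba* and the receptor kinase *Axl* fell by log2 changes of -1.17, -0.84, -0.71 and -0.68, and *Lats2* was not called. AP-1 and immediate early genes did not fall with them: of 15 tested, 4 rose (*Dusp6*, *Fosl1*, *Jun*, *Ier2*). *Dusp6*, a feedback phosphatase of ERK, was at 28.8 and 28.9 CPM at day 3 and 63.4 and 69.5 CPM at day 6 (log2 fold change 1.20 ± 0.13, adjusted p = 7.9e-05). Without day 3 replicate 2 or day 6 replicate 1 1 gene of the list rose, and without day 6 replicate 2 it was 2.

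The TEAD-binding MCAT element, GGAATG, was found on either strand in 6 of 8 promoters of the YAP/TEAD targets (75%; 7 genes matched) and in 7 of 17 promoters of contractile genes (41.2%; 15 genes matched), against 12.6% of all promoters and 2 of 19 promoters of tight junction genes (10.5%). The CArG box, the site of serum response factor, was sought only in its strict form CCWWWWWWGG (W is A or T). This form was found in 3 of 17 promoters of contractile genes (17.6%; *Cnn2*, *Myl9*, *Vcl*) and in 1.47% of all promoters. Sequences close to it, such as CCCTATATGG in the *Acta2* promoter shown here, were not counted, so no match does not mean no site. *Ctgf* and *Tagln* had no entry. Shown are the promoters of a contractile gene and a YAP target with the MCAT element in capitals. It starts 146 bases before the start in *Acta2* (chr19:34255374-34255623, - strand) and 123 and 210 bases before it in *Ankrd1* (chr19:36119845-36120094, - strand). That of *Myl9* (chr2:156775214-156775463, + strand) is shown with the CArG box in capitals, 161 bases before the start.
Acta2: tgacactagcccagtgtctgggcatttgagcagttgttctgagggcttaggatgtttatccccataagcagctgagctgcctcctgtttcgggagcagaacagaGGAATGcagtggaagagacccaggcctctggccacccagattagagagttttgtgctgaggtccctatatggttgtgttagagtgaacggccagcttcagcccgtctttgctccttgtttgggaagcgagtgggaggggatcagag
Ankrd1: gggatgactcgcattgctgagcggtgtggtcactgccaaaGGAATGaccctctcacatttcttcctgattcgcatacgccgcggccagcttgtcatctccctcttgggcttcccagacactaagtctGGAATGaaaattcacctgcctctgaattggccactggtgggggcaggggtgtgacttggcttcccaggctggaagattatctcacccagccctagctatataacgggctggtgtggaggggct
Myl9: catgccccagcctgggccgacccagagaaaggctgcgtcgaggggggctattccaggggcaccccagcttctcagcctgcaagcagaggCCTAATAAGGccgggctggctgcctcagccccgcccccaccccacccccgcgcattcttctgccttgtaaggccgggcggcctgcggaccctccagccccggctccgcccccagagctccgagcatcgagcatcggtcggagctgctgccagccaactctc
The letters of these windows describe the promoters and do not show that a factor was bound. Both lists were drawn up from background knowledge of these pathways, so a high share of these motifs was partly set by the choice of members. The shares describe the lists, and activity of TEAD or serum response factor was not tested.

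Beyond the contractile genes, the pentraxin *Ptx3* fell from 85.1 and 83.5 CPM at day 3 to 18.4 and 18.9 CPM at day 6 (4.49-fold lower; log2 fold change -2.17 ± 0.16, adjusted p = 6.9e-06). *Ptx3* overlaps *Veph1* in the annotation. The largest falls by fold were in less abundant genes. The matrix protein *Hmcn1* fell from 24 and 35.1 CPM at day 3 to 3.22 and 4.03 CPM at day 6 (7.79-fold lower; log2 fold change -2.96 ± 0.23, adjusted p = 1.3e-05). The receptor phosphatase *Ptprq* fell from 2.66 and 3.54 CPM at day 3 to 0 and 0.504 CPM at day 6 (log2 fold change -3.44 ± 0.66, adjusted p = 0.00228). The lectin *Siglecg* fell from 14 and 8.47 CPM at day 3 to 2.48 and 1.01 CPM at day 6 (log2 fold change -2.67 ± 0.45, adjusted p = 0.00113). *Npas4* went from 2.29 and 1.04 CPM at day 3 to 0.165 and 0 CPM at day 6 (read ratio 0.0506, interval 0.00598 to 0.192). The tendon gene *Tnmd*, the GABA receptor subunit *Gabra2*, the cadherin *Cdh17*, the sodium channel *Scn3a* and skeletal actin *Acta1* completed this set, with log2 changes of -2.93, -2.88, -2.85, -2.47 and -2.67.

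Matrix genes moved in both directions. Of 14 fibrillar and associated collagens 6 fell and 5 rose (median log2 change -0.48). *Col1a1*, the main fibroblast collagen, fell from 3812 and 3617 CPM at day 3 to 1595 and 1756 CPM at day 6 (2.22-fold lower; log2 fold change -1.15 ± 0.18, adjusted p = 6.6e-04). *Col8a1* fell from 109 and 94.2 CPM at day 3 to 37 and 40.9 CPM at day 6 (log2 fold change -1.37 ± 0.13, adjusted p = 3.9e-05). *Col6a3* rose from 760.2 and 671 CPM at day 3 to 1336 and 1441 CPM at day 6 (1.94-fold; log2 fold change 0.96 ± 0.17, adjusted p = 0.00139). *Col16a1* rose from 70.3 and 78.7 CPM at day 3 to 191 and 201 CPM at day 6 (log2 fold change 1.39 ± 0.14, adjusted p = 4.3e-05). *Col3a1* rose from 669 and 913 CPM at day 3 to 1115 and 1232 CPM at day 6 (log2 fold change 0.58 ± 0.17, adjusted p = 0.0176), called in 1 of the 4 fits that left out one *siNcor1* library. The counts were not stable: 3 collagens fell without day 3 replicate 2 or day 6 replicate 1, and 3 rose without day 3 replicate 1 or either day 6 library. Of 16 basement membrane genes 4 rose and 4 fell, against 13.8% and 20.9% of all genes. *Col18a1*, the source of endostatin, rose from 124 and 139 CPM at day 3 to 741 and 781 CPM at day 6 (5.79-fold; log2 fold change 2.53 ± 0.13, adjusted p = 3.6e-07). The laminin chain *Lama5* of epithelial basement membranes rose too (log2 fold change 1.03). *Lama2*, the laminin chain of muscle and mesenchyme (39.7 and 30.9 CPM at day 3 and 10.7 and 8.15 CPM at day 6; log2 fold change -1.89 ± 0.23, adjusted p = 1.3e-04), and *Nid2* (log2 fold change -1.20) fell. Only 2 basement membrane genes rose without day 3 replicate 2.

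Of 22 tested glycoproteins 8 fell and 4 rose. Fibronectin (*Fn1*) fell from 2833 and 2657 CPM at day 3 to 1372 and 1577 CPM at day 6 (1.87-fold lower; log2 fold change -0.90 ± 0.18, adjusted p = 0.00284). *Thbs1* fell from 4604 and 3487 CPM at day 3 to 1776 and 1727 CPM at day 6 (2.29-fold lower; log2 fold change -1.19 ± 0.20, adjusted p = 0.00111). Its paralog *Thbs2* rose from 399 and 427 CPM at day 3 to 977 and 1107 CPM at day 6 (2.52-fold; log2 fold change 1.33 ± 0.15, adjusted p = 9.9e-05). *Fbln5* and *Fbln2*, proteins of elastic fibres, fell by log2 changes of -1.57 and -1.05, and *Fbln1* rose by 0.98. The small proteoglycans split in the same manner. *Dcn* (decorin) rose from 24.4 and 31 CPM at day 3 to 147 and 169 CPM at day 6 (5.71-fold; log2 fold change 2.51 ± 0.26, adjusted p = 5.7e-05). *Lum* rose from 9.09 and 15.8 CPM at day 3 to 74.3 and 83.7 CPM at day 6 (6.51-fold; log2 fold change 2.70 ± 0.32, adjusted p = 1.3e-04). *Fmod* (86.3 and 65.5 CPM at day 3 and 20.1 and 21.7 CPM at day 6; log2 fold change -1.84 ± 0.17, adjusted p = 2.9e-05) and *Ogn* (log2 fold change -2.06) fell. The crosslinking enzymes *Lox* (172 and 163 CPM at day 3 and 62.6 and 65.9 CPM at day 6; log2 fold change -1.38 ± 0.12, adjusted p = 2.4e-05) and *Loxl2* (log2 fold change -1.05) fell. *Plod1* and *P3h3* rose, and 11 of 15 genes of collagen maturation were not called.

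Matrix proteases rose more often than they fell: of 16 tested proteases and inhibitors 8 rose and 4 fell (median log2 change 0.45). With a mean of at least 10 CPM required, 5 of 13 rose and 4 fell, with a median of -0.0035. Stromelysin 1 (*Mmp3*) went from 6.12 and 8.53 CPM at day 3 to 107 and 90.9 CPM at day 6 (13.4-fold; log2 fold change 3.75 ± 0.30, adjusted p = 1.4e-05). Gelatinase A (*Mmp2*) rose from 151 and 145 CPM at day 3 to 368 and 332 CPM at day 6 (log2 fold change 1.24 ± 0.12, adjusted p = 3.1e-05). *Mmp13* and *Adamts2* rose by log2 changes of 1.61 and 1.0. *Timp3*, *Adamts5* and the urokinase *Plau* were among those that fell, by -1.27, -1.58 and -1.23. The number that rose was 5 without day 3 replicate 2 and without day 6 replicate 2.

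The fibroblast identity of the libraries was checked on its markers, at both days. *Vim* stood at 2202 and 1911 CPM at day 3 and 1727 and 1566 CPM at day 6 (log2 fold change -0.32 ± 0.16, adjusted p = 0.139). *Pdgfrb* stood at 124 and 123 CPM at day 3 and 122 and 129 CPM at day 6. *Cdh11* stood at 230.1 and 220 CPM at day 3 and 188 and 219.8 CPM at day 6, and none of these 3 genes was called. Of 16 surface markers 5 fell and 3 rose, against 20.9% and 13.8% of all genes. *Thy1*, the classical surface marker whose loss is used to sort reprogramming cells, rose from 226 and 184 CPM at day 3 to 458 and 437 CPM at day 6 (2.20-fold; log2 fold change 1.14 ± 0.13, adjusted p = 1.1e-04). *Pdgfra* rose from 82.9 and 87.5 CPM at day 3 to 149.7 and 153 CPM at day 6 (1.77-fold; log2 fold change 0.83 ± 0.16, adjusted p = 0.00215). Neither gene overlapped between days. *Vcam1*, the fibronectin receptor chain *Itga5*, *Axl*, *Cd44* and *Cd248* fell by log2 changes of -1.11, -0.85, -0.68, -0.66 and -0.48. N-cadherin (*Cdh2*) fell from 88.8 and 87.9 CPM at day 3 to 45.2 and 45.1 CPM at day 6 (log2 fold change -0.97 ± 0.15, adjusted p = 8.0e-04). Of 18 tested fibroblast lineage factors 7 fell and 2 rose, led by *Osr1* (log2 fold change -0.86) and *Tbx18* (-0.80) on the way down and *Osr2* (1.74) on the way up. These falls were small, and with one *siNcor1* library left out the number that fell was 4, 3, 0 and 4 (in the order day 3 replicates 1 and 2, day 6 replicates 1 and 2). Only 1 of 29 tested Hox genes changed, *Hoxd13* (24.8 and 28.6 CPM at day 3 and 19.2 and 17.7 CPM at day 6; log2 fold change -0.53 ± 0.15, adjusted p = 0.0181). It was called in 1 of the 4 fits that left out one *siNcor1* library.

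Proliferation genes fell. Of 20 mitosis genes 14 fell and none rose (median log2 change -0.78), and of 20 replication genes 9 fell and none rose (median -0.40, and -0.26 after quantile normalization). The proliferation marker *Mki67* fell from 398 and 477 CPM at day 3 to 166 and 168 CPM at day 6 (2.61-fold lower; log2 fold change -1.39 ± 0.14, adjusted p = 4.4e-05). The kinetochore motor *Cenpe* fell from 138 and 160.4 CPM at day 3 to 56.8 and 56.7 CPM at day 6 (2.62-fold lower; log2 fold change -1.39 ± 0.14, adjusted p = 5.7e-05). The spindle factor *Tpx2* and topoisomerase *Top2a* fell by log2 changes of -0.99 and -0.93, and the ribonucleotide reductase subunits *Rrm2* and *Rrm1* by -1.13 and -0.95. *Cdk1* (102 and 138 CPM at day 3 and 133 and 123 CPM at day 6), *Ube2c*, *Nusap1* and *Pcna* (121 and 139 CPM at day 3 and 139.9 and 133 CPM at day 6) overlapped between days. The summed level of the mitosis genes was 2019 and 2444 CPM at day 3 and 1348 and 1274 CPM at day 6. With one library left out 11 to 14 mitosis genes fell, and 5 replication genes fell without day 3 replicate 2.

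Genes of ribosome biogenesis fell with them, 11 of 20 (median log2 change -0.42, and -0.26 after quantile normalization), where 20.9% of all genes fell. *Nhp2* rose, a call lost without day 3 replicate 1 and without day 6 replicate 1. Nucleolin (*Ncl*) fell from 1498 and 1727 CPM at day 3 to 878 and 901 CPM at day 6 (1.81-fold lower; log2 fold change -0.85 ± 0.16, adjusted p = 0.00176). The pre-rRNA processing factor *Utp20* fell from 254 and 279 CPM at day 3 to 131 and 130.1 CPM at day 6 (log2 fold change -1.03 ± 0.13, adjusted p = 2.0e-04). *Npm1* was not called (1303 and 1517 CPM at day 3 and 1526 and 1608 CPM at day 6). Without day 6 replicate 2 the number that fell was 7. Of 16 amino acid and ATF4 genes 5 fell, among them the serine pathway enzyme *Psat1* (449 and 399 CPM at day 3 and 262 and 228 CPM at day 6; log2 fold change -0.79 ± 0.14, adjusted p = 0.00171) and the mitochondrial folate enzyme *Mthfd2* (log2 fold change -0.76). The cystine transporter *Slc7a11* rose (152 and 69.6 CPM at day 3 and 305 and 357 CPM at day 6; log2 fold change 1.68 ± 0.28, adjusted p = 0.00108). Without day 3 replicate 1 or day 6 replicate 2, 2 genes of this list fell. In glycolysis 5 of 15 genes rose and 2 fell, where 13.8 and 20.9% of all genes did, and with one *siNcor1* library left out 2 or 3 rose. The glucose transporter *Slc2a1* rose from 63.4 and 52.4 CPM at day 3 to 203 and 205 CPM at day 6 (3.54-fold; log2 fold change 1.82 ± 0.21, adjusted p = 1.1e-04). The lactate exporter *Slc16a3* rose from 1.86 and 1.97 CPM at day 3 to 17.4 and 20.3 CPM at day 6 (log2 fold change 3.21 ± 0.30, adjusted p = 3.3e-05). Hexokinase 2 (*Hk2*, 186 and 195 CPM at day 3 and 112 and 108 CPM at day 6; log2 fold change -0.79 ± 0.11, adjusted p = 4.1e-04) and *Pfkp* fell, and *Gapdh*, *Eno1* and *Ldha* were not called. Among 21 cholesterol synthesis genes only *Mvd* was called.

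Nuclear receptors, with which NCOR1 is known to work, control many lipid genes. Of 25 tested nuclear receptor and lipid genes 9 rose and 1 (*Abca1*) fell, where 13.8% of all genes rose and 20.9% fell, with a median log2 change of 0.21 (0.11 among the 16 that averaged 10 CPM or more). The *Abca1* call was lost in 3 of the 4 fits that left out one *siNcor1* library, without the variance trend and after quantile normalization. *Plin2*, which coats lipid droplets, rose from 225 and 162 CPM at day 3 to 445 and 424 CPM at day 6 (log2 fold change 1.19 ± 0.16, adjusted p = 3.0e-04). *Angptl4*, a PPAR target, rose from 41.1 and 29.5 CPM at day 3 to 76.2 and 70.4 CPM at day 6 (log2 fold change 1.07 ± 0.15, adjusted p = 4.3e-04). In these genes the days did not overlap. *Pparg* (10.6 and 9.63 CPM at day 3 and 9.33 and 9.33 CPM at day 6), *Lpl* (52.1 and 51.1 CPM at day 3 and 50.0 and 53 CPM at day 6) and the clock receptor *Nr1d1* were not called. In the fit without day 3 replicate 2, 5 genes of this list rose.

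**Figure D3:**
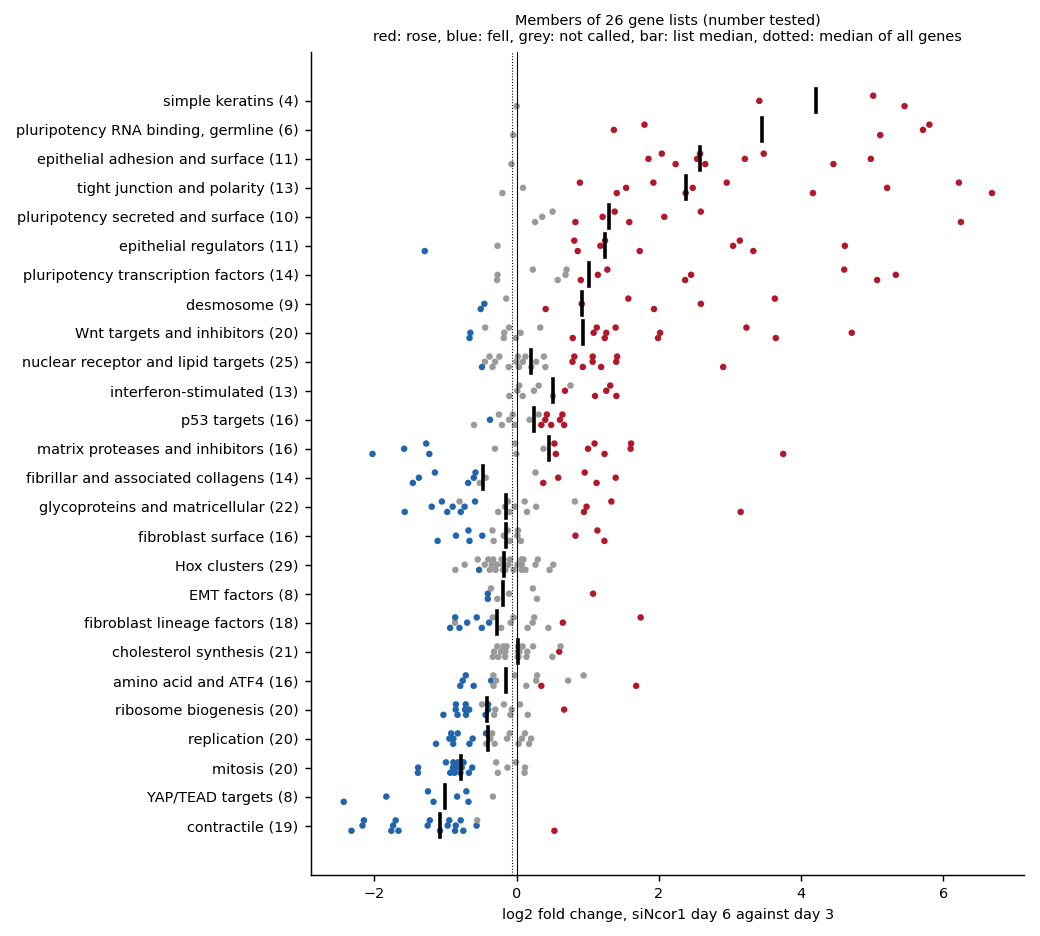
Log2 fold change of day 6 against day 3 in *siNcor1* for the tested members of 26 gene lists, one point per gene, red for genes that rose, blue for genes that fell and grey for genes not called. The bar is the median of a list and the dotted line the median of all 13866 genes (-0.07). The keratin, junction and pluripotency lists lie to the right and the contractile, YAP/TEAD and mitosis lists to the left, while the collagen and glycoprotein lists spread to both sides.

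Several, but not all, markers of macrophages and endothelium were at or near 0 in the libraries. Of 14 macrophage and blood genes 4 were tested and *Cd68* rose (log2 fold change 0.78; called in 1 of the 4 fits that left out one *siNcor1* library). Their summed level was 10.6 and 7.31 CPM at day 3 and 14.5 and 14.4 CPM at day 6. The defining genes *Adgre1* (0.0619 and 0.232 CPM at day 3 and 0.165 and 0.168 CPM at day 6), *Tyrobp* and *C1qb* were at or near 0. Of endothelial genes *Cdh5* (0 and 0.116 CPM at day 3 and 0.165 and 0.420 CPM at day 6) and *Emcn* were at or near 0. *Plvap* rose (0.619 and 0.696 CPM at day 3 and 7.93 and 4.88 CPM at day 6; log2 fold change 3.0 ± 0.34, adjusted p = 9.6e-05) and *Tek* fell (log2 fold change -1.22). *Tek* was expressed, as the only tested endothelial gene that averaged 10 CPM or more. Summed endothelial levels were 44.0 and 47.8 CPM at day 3 and 30.7 and 30.3 CPM at day 6. The 8 neural genes tested had 3 falls and the 4 muscle genes 1, *Acta1*. The summed muscle level was 39.3 and 16.8 CPM at day 3 and 8.01 and 6.64 CPM at day 6. Of 11 tested abundant noncoding and mitochondrial RNAs 3 rose and 8 were not called, and without day 3 replicate 2 or day 6 replicate 1 no rise was called. *Rn7sk* rose (7269.5 and 3418 CPM at day 3 and 19064 and 12851 CPM at day 6; log2 fold change 1.65 ± 0.41, adjusted p = 0.00954). *mt-Nd1* rose too (1677 and 1317 CPM at day 3 and 2296 and 2424 CPM at day 6; log2 fold change 0.67 ± 0.19, adjusted p = 0.0188). They were called in 2 and 1 of the 4 fits that left out one *siNcor1* library. Small RNAs as a class rose in 46 of 95 cases (48.4%) and fell in 1. The part of these RNAs in the results above was not tested.

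How far the course was particular to *siNcor1* was asked by testing the difference of the day 6 against day 3 changes between the knockdowns, which shared no library. In the libraries labelled *siOct4* 22.2% of genes rose and 30.5% fell. The difference was called for 2867 genes (20.7%), higher in *siNcor1* for 12.9% and lower for 7.77%. With library totals without *Gm26917*, whose share grew more in *siOct4*, it was called for 3095 genes. Of the 1917 genes that rose in *siNcor1*, 1198 also rose in *siOct4* and 122 fell. Of the 2902 that fell, 1938 also fell and 77 rose. The number of called differences depended on single libraries: it was 1009 without *siNcor1* day 3 replicate 2, 1189 without *siNcor1* day 6 replicate 2, 1767 without *siNcor1* day 6 replicate 1 and 1377 without *siOct4* day 3 replicate 2.

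The falls of contractile and YAP/TEAD genes were smaller in *siNcor1*. For 18 of 19 contractile genes the change was called higher (less negative) than in *siOct4*, where the median log2 change was -2.58 against -1.08. *Acta2* went from 2027 and 2219 CPM at day 3 to 99.9 and 103 CPM at day 6 in *siOct4* (difference 2.24 ± 0.25, adjusted p = 6.1e-04). *Ctgf* went there from 145 and 163 CPM at day 3 to 3.28 and 4.24 CPM at day 6 (difference 2.88 ± 0.32, adjusted p = 6.1e-04), and 7 of 8 YAP/TEAD targets differed in this direction. Whichever way they moved in *siNcor1*, the change was also called higher there for 12 of 14 collagens, 20 of 22 glycoproteins, 14 of 16 proteases and inhibitors, 13 of 15 TGF-β genes, 11 of 16 surface markers and 7 of 8 EMT factors. *Thy1* stood at 311 and 279 CPM at day 3 and 284 and 277 CPM at day 6 in *siOct4* (difference 1.21 ± 0.18, adjusted p = 0.00159). *Thy1* and *Mmp2* (173 and 188 CPM at day 3 and 189 and 195 CPM at day 6 in *siOct4*) rose in *siNcor1* and were not called in *siOct4*, and *Col6a3* rose in *siNcor1* and fell in *siOct4* (929.9 and 1249.5 CPM at day 3 and 645 and 735 CPM at day 6; difference 1.60 ± 0.24, adjusted p = 0.00139).

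Epithelial and pluripotency genes gave no single direction. *Cdh1* rose by a smaller fold in *siNcor1* than in *siOct4*, where it went from 7.52 and 9.24 CPM at day 3 to 105 and 96.8 CPM at day 6 (difference -1.34 ± 0.19, adjusted p = 0.00117). So did *Krt8* (1.83 and 1.65 CPM at day 3 and 110.2 and 93.5 CPM at day 6 in *siOct4*; difference -0.75 ± 0.22, adjusted p = 0.0331) and *Esrp1* (difference -2.0 ± 0.37, adjusted p = 0.00357). In CPM, *Cdh1* and *Krt8* stood higher in *siNcor1* than in *siOct4* at both days. *Krt18* rose by a larger fold in *siNcor1* (4.34 and 2.91 CPM at day 3 and 16.4 and 17.7 CPM at day 6 in *siOct4*; difference 3.24 ± 0.28, adjusted p = 2.4e-04). So did *Cldn4* (difference 1.50 ± 0.42, adjusted p = 0.0277) and *Cldn6* (difference 2.39 ± 0.65, adjusted p = 0.0242). For *Krt7* the *siOct4* libraries stood at 2.17 and 1.52 CPM at day 3 and 0.740 and 1.78 CPM at day 6, without the rise (difference 4.0 ± 0.50, adjusted p = 7.4e-04). Of the pluripotency factors *Tfcp2l1* rose in *siNcor1* and fell in *siOct4* (6.57 and 6.83 CPM at day 3 and 3.59 and 2.89 CPM at day 6; difference 3.48 ± 0.29, adjusted p = 2.4e-04). For *Nanog* the difference was not called (0.271 and 0 CPM at day 3 and 13 and 16.7 CPM at day 6 in *siOct4*; difference -0.91 ± 0.61, adjusted p = 0.307).

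The called difference ran the other way for proliferation and biosynthesis. The change was lower in *siNcor1* for 9 of 20 mitosis genes, 8 of 20 replication genes and 9 of 16 amino acid and ATF4 genes, and 12 of these 16 rose in *siOct4*. *Pcna* was not called in *siNcor1* and rose in *siOct4* from 123 and 94.4 CPM at day 3 to 217 and 245 CPM at day 6 (difference -1.02 ± 0.20, adjusted p = 0.00573). *Phgdh*, the first enzyme of serine synthesis, was at 133 and 122 CPM at day 3 and 117 and 92.4 CPM at day 6 in *siNcor1*. In *siOct4* it rose from 134 and 115 CPM at day 3 to 248 and 232 CPM at day 6 (difference -1.24 ± 0.20, adjusted p = 0.00191). For *Mki67* the difference was not called (difference -0.14 ± 0.19, adjusted p = 0.634).

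**Figure D4:**
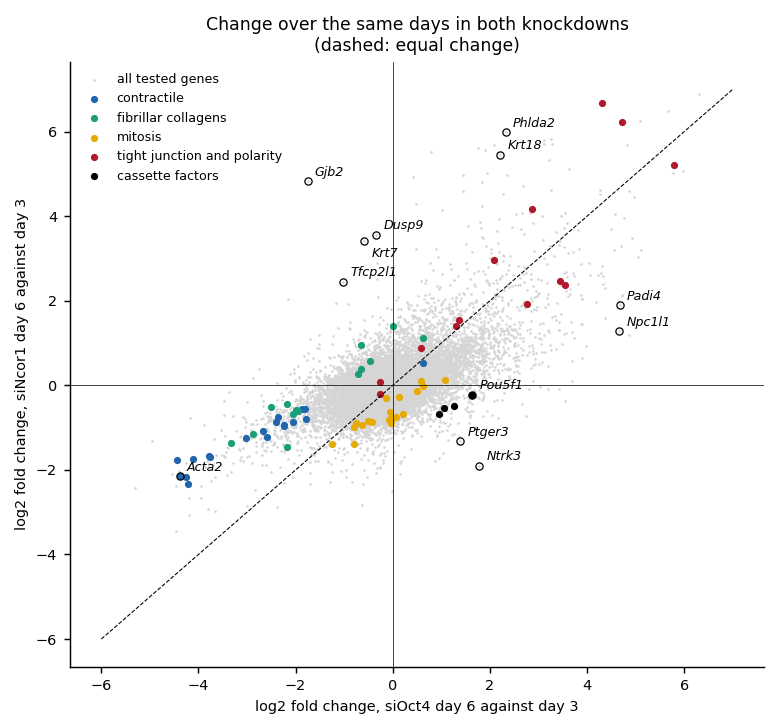
Log2 fold change of day 6 against day 3 in *siNcor1* (vertical axis) and in *siOct4* (horizontal axis) for all tested genes in grey, with contractile, fibrillar collagen, mitosis, tight junction and cassette genes coloured. The dashed line marks equal change. Apart from *Csrp2*, the contractile genes lie above the line in the quadrant where both changes are below 0, and the 4 cassette factors lie below it, with rises in *siOct4* and values below 0 in *siNcor1*.

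The genes with the largest difference among those called in *siNcor1* included *Gjb2* and *Krt7* (given above), both on the lists, and genes outside them. *Gjb2* rose in *siNcor1* and fell in *siOct4* (0.542 and 0.759 CPM at day 3 and 0.106 and 0.0849 CPM at day 6; difference 6.58 ± 0.71, adjusted p = 6.0e-04). *Dusp9*, an ERK phosphatase on the X chromosome, rose in *siNcor1* from 3.59 and 4.18 CPM at day 3 to 47.5 and 47.1 CPM at day 6 (log2 fold change 3.56 ± 0.18, adjusted p = 3.6e-07). It stood at 7.99 and 7.97 CPM at day 3 and 6.76 and 5.77 CPM at day 6 in *siOct4* (difference 3.91 ± 0.25, adjusted p = 3.9e-05). *Nxf7* went from 0 and 0.116 CPM at day 3 to 4.96 and 6.14 CPM at day 6 (read ratio 92.5, interval 25.1 to 772). The pantetheinase *Vnn1* rose from 2.10 and 1.97 CPM at day 3 to 7.68 and 10.3 CPM at day 6 (log2 fold change 2.05 ± 0.34, adjusted p = 0.00101). On the other side, the neurotrophin receptor *Ntrk3* fell from 2.35 and 3.13 CPM at day 3 to 0.909 and 0.420 CPM at day 6 in *siNcor1* (called in 2 of the 4 fits that left out one *siNcor1* library) and rose in *siOct4* (difference -3.68 ± 0.64, adjusted p = 0.00275). The prostaglandin receptor *Ptger3* did likewise (3.84 and 5.22 CPM at day 3 and 1.82 and 1.60 CPM at day 6 in *siNcor1*; difference -2.71 ± 0.36, adjusted p = 8.8e-04). *Padi4* and *Hrk* rose in both and rose less in *siNcor1* (differences of -2.78 and -2.79 on the log2 scale). *Npc1l1* went from 0.681 and 0.812 CPM at day 3 to 1.90 and 2.10 CPM at day 6 in *siNcor1* and from 0 and 0 CPM at day 3 to 3.59 and 3.06 CPM at day 6 in *siOct4*, and its difference was called. The rise of *Npc1l1* in *siNcor1* was called in none, and that of *Hrk* in 1, of the 4 fits that left out one *siNcor1* library.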

How the data were processed

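Total RNA was depleted of ribosomal RNA and sequenced in 8 libraries, in 4 groups of 2. Per the submitters' processing notes, reads were aligned with STAR 2.5.2b to mm10 (GRCm38) and the authors deposited log2 CPM values made with edgeR 3.20.9 for 18990 genes. The counting tool and its use of strand are not given in the sources used here, so overlapping genes and close paralogs cannot be told apart. A value of 0 reads is deposited as -2.87. Whole reads were recovered from the deposited log2 values (within 0.1 read for values below 5000 reads) for depth, CPM and counting intervals, which cover counting error only.

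All genes averaging 1 CPM or more across the series entered one limma fit (version 3.58.1, R 4.3.3) of the 4 groups, without a block, with a trended prior variance and Benjamini-Hochberg adjustment over 13866 genes. The contrasts were day 6 against day 3 in each knockdown and their difference. Alternatives, limma voom on the recovered reads among them, are given in the closing section. For 18969 genes Ensembl IDs matched GENCODE M21, which gave positions, and promoters came from RefSeq on GRCm38.p6. Tables and figures were made with Python 3.11.15.

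The comparison and the 53 gene lists were chosen with earlier results of these data known, so a list is described by its counts and median and was not tested. The text names *Ncor1* and the cassette genes, the 10 largest changes per direction among called genes without overlap between days (unnamed gene models left out), the 5 largest with a mean of at least 100 CPM, the 3 with the lowest adjusted p, the 5 largest called differences per direction, and in each list up to 4 called members per direction, the first 2 listed and all members of lists of up to 10. Genes named beyond this rule, mostly list members that were not called or were near 0, were chosen after their values were seen. A few genes that meet the rule are not reported here.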

Additional observations from a re-analysis of the deposited data

Results flagged for a closer look

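The day 6 against day 3 change differed between *siNcor1* and *siOct4* by the interaction test in limma for 2867 genes. Among the genes named by rule, each of the following differences of the log2 fold changes (*siNcor1* minus *siOct4*) passed it, and no explanation was weighed. They are on the deposited log2 scale, where the added constant shapes the values of genes near 0 reads, such as *Npc1l1*, *Dppa3*, *Cldn6*, *Dkk4*, *Phlda2* and *Nxf7*.

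The change was higher in *siNcor1* for contractile and YAP/TEAD genes that fell in both (*Acta2* 2.239, *Actg2* 1.897, *Cnn1* 2.094, *Myl9* 2.053, *Ctgf* 2.884), and likewise for *Ptx3* (2.138). It was also higher for the epithelial genes *Krt18* (3.24), *Krt7* (4.004), *Cldn4* (1.5), *Cldn6* (2.387) and *Gjb2* (6.583). Further genes with a higher change were *AU015836* (2.597), *Crabp1* (0.8498), *Dkk4* (2.565), *Dppa3* (2.434), *Dusp9* (3.912), *Nxf7* (4.514), *Phlda2* (3.663), *Slc2a3* (1.514), *Spp1* (0.9617) and *Vnn1* (4.207), and *Ncor1* itself (0.7859).

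The change was lower in *siNcor1* for the 4 cassette factors (*Pou5f1* -1.851, *Sox2* -1.581, *Klf4* -1.74, *Myc* -1.641), for *Krt8* (-0.7486), and for *Ntrk3* (-3.684), *Npc1l1* (-3.383), *Hrk* (-2.785), *Padi4* (-2.775) and *Ptger3* (-2.714).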

How the results depend on the processing

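The counts of genes that rose (1917), fell (2902) and differed between knockdowns (2867) depended most on size and on single libraries. With one library left out (the lone sample of a group is then assumed to vary like the other groups) they ranged from 969 to 1399, from 1391 to 1893 and from 1009 to 3667. With a log2 change of at least 1 required they were 867, 424 and 1486. With a mean of at least 10 CPM required, 1177 rose and 2650 fell of 9223 tested, and fewer genes tested lowers the first count. Of 358 called genes that were listed or named, 1074 of 1432 calls were kept in the fits without one *siNcor1* library.

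The other alternatives stayed within 1.5 times of these counts: rose and fell were 2156 and 2635 after median centring, 2331 and 2361 with library totals without *Gm26917* (49.7% of calls then rose, against 39.8%), 1883 and 2822 without normalization factors, 2088 and 2440 after quantile normalization, 2064 and 2752 without the filter, 1702 and 2304 without the variance trend (1925 differed), 2471 and 3600 with *siNcor1* alone, 1909 and 2896 with a pseudocount of 0.1, 1942 and 2933 with 1, and 2090 and 3077 with voom. No named result reversed. Of the 358 calls, 52 were lost without the trend, 34 after quantile normalization, 18 without *Gm26917* and none with voom. The medians of the glycoprotein (-0.14), crosslinking (-0.01), TGF-β (-0.15) and mesenchymal adhesion (-0.10) lists changed sign under a scaling, so these lists have no direction.

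When the replicate number was added as a block, 2111 genes rose, 3107 fell and 3395 differed, and none of the 358 calls was lost. The samples share only a number: deviations of same-numbered *siNcor1* libraries correlated at 0.099, and those of all pairs of groups from -0.040 to 0.281. Depth (11320066 to 16445192 reads in *siNcor1*) limits genes near 0.174 to 0.252 CPM, where 3 reads lie.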

Other observations

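TGF-β genes, measured in a medium with a receptor inhibitor at both days, gave no single direction. Of 15 tested 5 fell and 4 rose, against 20.9% and 13.8% of all genes. *Tgfb3* fell from 113 and 82 CPM at day 3 to 34.4 and 32 CPM at day 6 (log2 fold change -1.53 ± 0.17, adjusted p = 8.5e-05) and *Inhba*, an activin chain, from 105 and 91.6 CPM at day 3 to 38.1 and 48.3 CPM at day 6 (log2 fold change -1.19 ± 0.16, adjusted p = 3.3e-04), while *Tgfb1* rose from 14 and 11.4 CPM at day 3 to 23.6 and 22.9 CPM at day 6 (log2 fold change 0.87 ± 0.16, adjusted p = 0.0018). In the fit without day 6 replicate 2, 1 gene of the list rose, and without each of the other libraries 2. Of 13 tested cytokine and acute phase genes 3 rose and 3 fell. The chemokine *Cxcl12* fell from 74.9 and 66.4 CPM at day 3 to 28.8 and 24.6 CPM at day 6 (log2 fold change -1.40 ± 0.14, adjusted p = 4.7e-05), and *Ptgs2* (COX-2) rose from 103 and 86.1 CPM at day 3 to 159 and 203 CPM at day 6 (log2 fold change 0.94 ± 0.18, adjusted p = 0.00226). Of 9 tested MHC class I genes 5 rose, led by *H2-K1* (17.8 and 11.8 CPM at day 3 and 51 and 46.9 CPM at day 6; log2 fold change 1.74 ± 0.19, adjusted p = 7.0e-05), whose reads may be split with its close copies, and of 13 interferon-stimulated genes 5 rose, led by *Bst2* (23.3 and 19.3 CPM at day 3 and 63.9 and 49.6 CPM at day 6; log2 fold change 1.40 ± 0.16, adjusted p = 9.5e-05). Without day 6 replicate 1 these counts were 2 and 2.

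At the INK4 locus, whose products block the cell cycle, *Cdkn2a* rose from 55.7 and 49.8 CPM at day 3 to 106 and 105 CPM at day 6 (log2 fold change 1.0 ± 0.12, adjusted p = 1.4e-04) and *Cdkn2b* from 55.5 and 41.9 CPM at day 3 to 84.5 and 88 CPM at day 6 (log2 fold change 0.84 ± 0.14, adjusted p = 0.00121). Of 16 p53 targets 7 rose and 1 fell, but all by small amounts, with *Cdkn1a* at 445 and 421 CPM at day 3 and 576 and 567 CPM at day 6 (log2 fold change 0.40 ± 0.12, adjusted p = 0.0224), and with one *siNcor1* library left out the number that rose was 0 to 3. Of 8 DNA methylation genes the de novo enzyme *Dnmt3b* (5.07 and 6.26 CPM at day 3 and 19.3 and 15.6 CPM at day 6; log2 fold change 1.60 ± 0.21, adjusted p = 2.7e-04), its cofactor *Dnmt3l* and *Tet1* (8.54 and 8.41 CPM at day 3 and 21.1 and 18.1 CPM at day 6; log2 fold change 1.19 ± 0.16, adjusted p = 3.4e-04) rose, and *Dnmt1*, *Uhrf1*, *Tet2* and *Tet3* fell. Without day 3 replicate 2 none of these 4 falls was called. Of 12 Polycomb genes *Ezh2* fell (57.7 and 68.2 CPM at day 3 and 32.9 and 32.8 CPM at day 6; log2 fold change -0.93 ± 0.17, adjusted p = 0.00175) and *Cbx7* rose (9.03 and 8.47 CPM at day 3 and 19.3 and 17.8 CPM at day 6; log2 fold change 1.07 ± 0.20, adjusted p = 0.00219). Imprinted genes went both ways: *Cdkn1c* (9.84 and 9.51 CPM at day 3 and 33.5 and 44.1 CPM at day 6; log2 fold change 1.97 ± 0.19, adjusted p = 3.6e-05), *Peg10* (204 and 125 CPM at day 3 and 369 and 447 CPM at day 6; log2 fold change 1.34 ± 0.19, adjusted p = 4.5e-04) and *H19* (656 and 638 CPM at day 3 and 1414 and 1588 CPM at day 6; log2 fold change 1.21 ± 0.14, adjusted p = 1.3e-04) were among 4 of 15 that rose, and *Mest* (log2 fold change -0.79) and *Plagl1* (-0.73) among 4 that fell. Of 15 replication-dependent histone genes, which have many near-identical copies, 2 rose (*Hist1h1c* and *Hist1h4c*).

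By level, rises and falls were spread unevenly: of 2296 genes with a mean of 1 to 3 CPM 314 rose and 101 fell, and of 1407 genes with 100 to 300 CPM 160 rose and 579 fell. Of 347 genes over 300 CPM 82 rose (23.6%) and 124 fell, so the share that rose did not simply decline with level. Small changes are also harder to call at a low level.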
